A study of Homo sapiens with 4 samples.

Results

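The genes of glycolysis, of the exchange of lactate and of the entry of pyruvate into the mitochondria were followed through the hematopoietic differentiation of BC1 cells, a line of human induced pluripotent stem cells. The set holds 35 genes, taken by their symbols from a table of 58274 genes: 2 glucose transporters, 23 genes of the steps from glucose to pyruvate, 2 lactate dehydrogenases, 2 monocarboxylate transporters, 4 pyruvate dehydrogenase kinases and 2 subunits of the E1 component of pyruvate dehydrogenase. Each of the 35 symbols matched 1 gene. The values are FPKM, fragments divided by transcript length in kilobases and scaled to 1000000 fragments mapped, so that genes of different length can be compared within a library.

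Total RNA of 4 populations was sequenced, with 1 library for each: undifferentiated BC1 cells, APLNR+ mesoderm cells sorted at day 2, CD31+CD34+ hemogenic endothelial progenitors sorted at day 5, and CD43+ hematopoietic progenitors sorted at day 8. All 3 sorted populations descend from BC1, which is 1 line. By the labels the full culture had activin A at 40 ng/ml and BMP4 at 50 ng/ml for 2 days and then VEGF at 40 ng/ml and bFGF at 50 ng/ml for 6 days, so that cells sorted at day 2 had the first medium only and cells sorted at day 5 part of the second. The study's methods give the amounts of activin A and BMP4 the other way around. The populations therefore also differ in day and in medium, which cannot be told apart from cell type. With 1 library for each population there was no replicate check and no test, and the intervals given below cover the counting of fragments only, not the variation between cultures or sorts. In these bulk samples fewer cells of a type and less RNA per cell cannot be told apart.

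The depth recovered from the values lay between 19700000 and 23600000 mapped fragments, and from 13554 to 14335 genes reached 1 FPKM in a library. The summed FPKM of marker genes followed the labels. The 8 pluripotency markers summed to 3594 FPKM in BC1, the 7 mesoderm markers found in the table to 2329 FPKM in APLNR+, and the 8 endothelial markers to 1407 FPKM in CD31+CD34+. In CD43+ all 13 erythroid markers (12114 FPKM in sum) and all 9 megakaryocytic markers (4111 FPKM) reached 1 FPKM. In CD31+CD34+ these lists summed to 99.6 and 101 FPKM. Summed over 10 myeloid markers, CD43+ held 128 FPKM against 42.3 in the library before it, and 4 of them reached 1 FPKM there, with SPI1 at 104 FPKM, MPO at 0.0790 FPKM and ELANE listed at 0. For the 7 hematopoietic markers these sums were 466 and 126 FPKM, and 6 of them reached 1 FPKM in both libraries. The exception was PTPRC, the gene of the pan-leukocyte antigen CD45, at or below 0.0349 FPKM in all 4 libraries. These sums differ between the same 2 libraries as the differences from CD31+CD34+ to CD43+ below, and their part in these was not tested.

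Glycolysis splits glucose into pyruvate in the cytosol. Cells take glucose up through transporters of the SLC2A family, trap it as glucose-6-phosphate by hexokinase and commit it at phosphofructokinase, whose strongest activator, fructose-2,6-bisphosphate, is made and removed by the PFKFB enzymes. Pyruvate is either reduced to lactate by lactate dehydrogenase and exported through monocarboxylate transporters, or enters the mitochondria, where pyruvate dehydrogenase turns it into acetyl-CoA and the PDK kinases switch that enzyme off. Many steps have several isoenzymes from separate genes. Pluripotent stem cells are known for a high rate of glycolysis, and mature red cells, which have no mitochondria, live on it entirely.

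A gene is said to have risen or fallen when log2(FPKM + 1) changed by at least 1 between 2 libraries. Of the 35 genes, 32 had at least 1 FPKM in at least 1 library and entered these counts. The exceptions were HK3, PFKFB1 and PDK4, which reached at most 0.455, 0.280 and 0.196 FPKM. From BC1 to APLNR+, 2 of the 32 rose (PKM and SLC16A3) and 2 fell (ENO2 and SLC2A1), 6.25% in each direction, while 9.15% of all 17137 genes that passed the same filter rose and 9.32% fell. At the step to CD31+CD34+, SLC16A3, ENO2 and PDK2 rose (3 genes) and PKM and HK2 fell (2 genes), where 13% of all genes rose and 11.4% fell. At neither step did the set hold a larger share of changed genes than the table as a whole, and the median change of the 32 genes was -0.07 and -0.02 against 0.00 and 0.01 for all genes.

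The step from CD31+CD34+ to CD43+ differed from these. There 8 of the 32 genes rose (PFKFB2, PFKFB4, PKLR, HK2, LDHA, PDK1, SLC2A1 and GPI), which is 25% against 7.63% of all genes, and only SLC16A1 fell, 3.125% against 13.5% of all genes. The median change of the 32 genes on the log2(FPKM + 1) scale was 0.45, while that of all genes was -0.08. Any difference upward, whatever its size, was seen in 27 of the 32 genes (84.4%) and in 42.6% of all genes. Over the whole path from BC1 to CD43+, 8 genes rose (SLC16A3, PFKFB4, PFKFB2, ENO2, PKLR, ALDOA, LDHA and PDK1) and 2 fell (SLC16A1 and SLC2A1), where 15.2% of all genes rose and 18.9% fell. The counts have no replicate behind them. Some changes lay close to the threshold: GPI at 1.02 and SLC16A1 at -1.02 in the last step and ENO2 at -1.02 in the first, with ALDOA just short of it at 0.92 in the last. GPI was at 0.97 when mitochondrial and globin genes were left out of the scaling and at 0.85 with a scaling by reference genes, and SLC16A1 was at -0.91 with a scaling by median ratios.

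**Figure D1:**
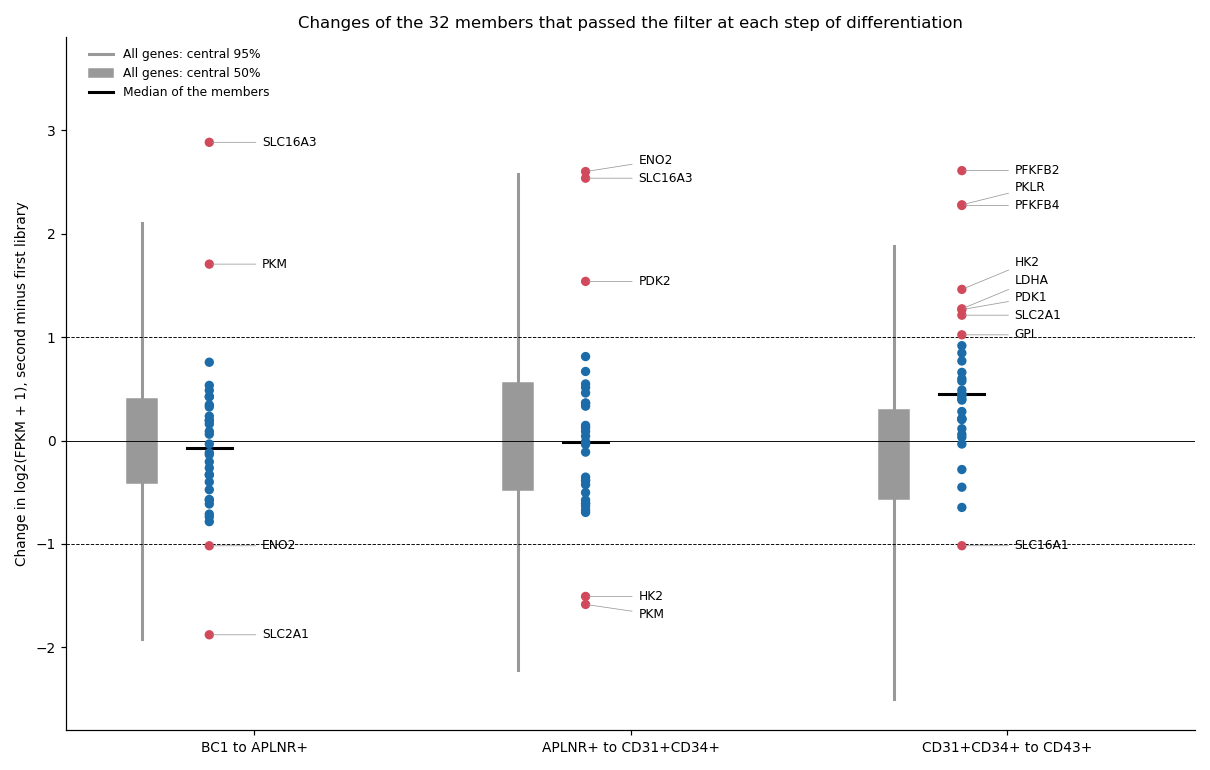
Change in log2(FPKM + 1) at the 3 consecutive steps of differentiation (y axis, second library minus first) for the 32 genes that passed the filter, with 1 point per gene, red and named where the change reached 1 in either direction (dashed lines). Black bars mark the medians of these genes, and grey boxes and lines hold the central 50% and 95% of all 17137 genes: in the last step 8 points lie above the upper dashed line and the median of 0.45 lies above the grey box, whose upper edge is at 0.30.

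All 35 genes together summed to 9636, 9811, 8569 and 11674 FPKM in the order of differentiation, which is 1.53%, 1.58%, 1.41% and 1.77% of the total FPKM of these libraries. CD31+CD34+ had the lowest sum and CD43+ the highest. Of the 32 genes, 17 (53.1%) were highest in CD43+, where 24.0% of all genes had their highest value, and 13 were lowest in CD31+CD34+, where 19.2% of all genes had their lowest value. SLC16A1 was the only gene of the 32 with its lowest value in CD43+, where 31.4% of all genes were lowest. GAPDH had the highest FPKM of the set in all 4 libraries. The gene in second place was ENO1 in BC1 and in CD31+CD34+, PKM in APLNR+ and ALDOA in CD43+.

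**Figure D2:**
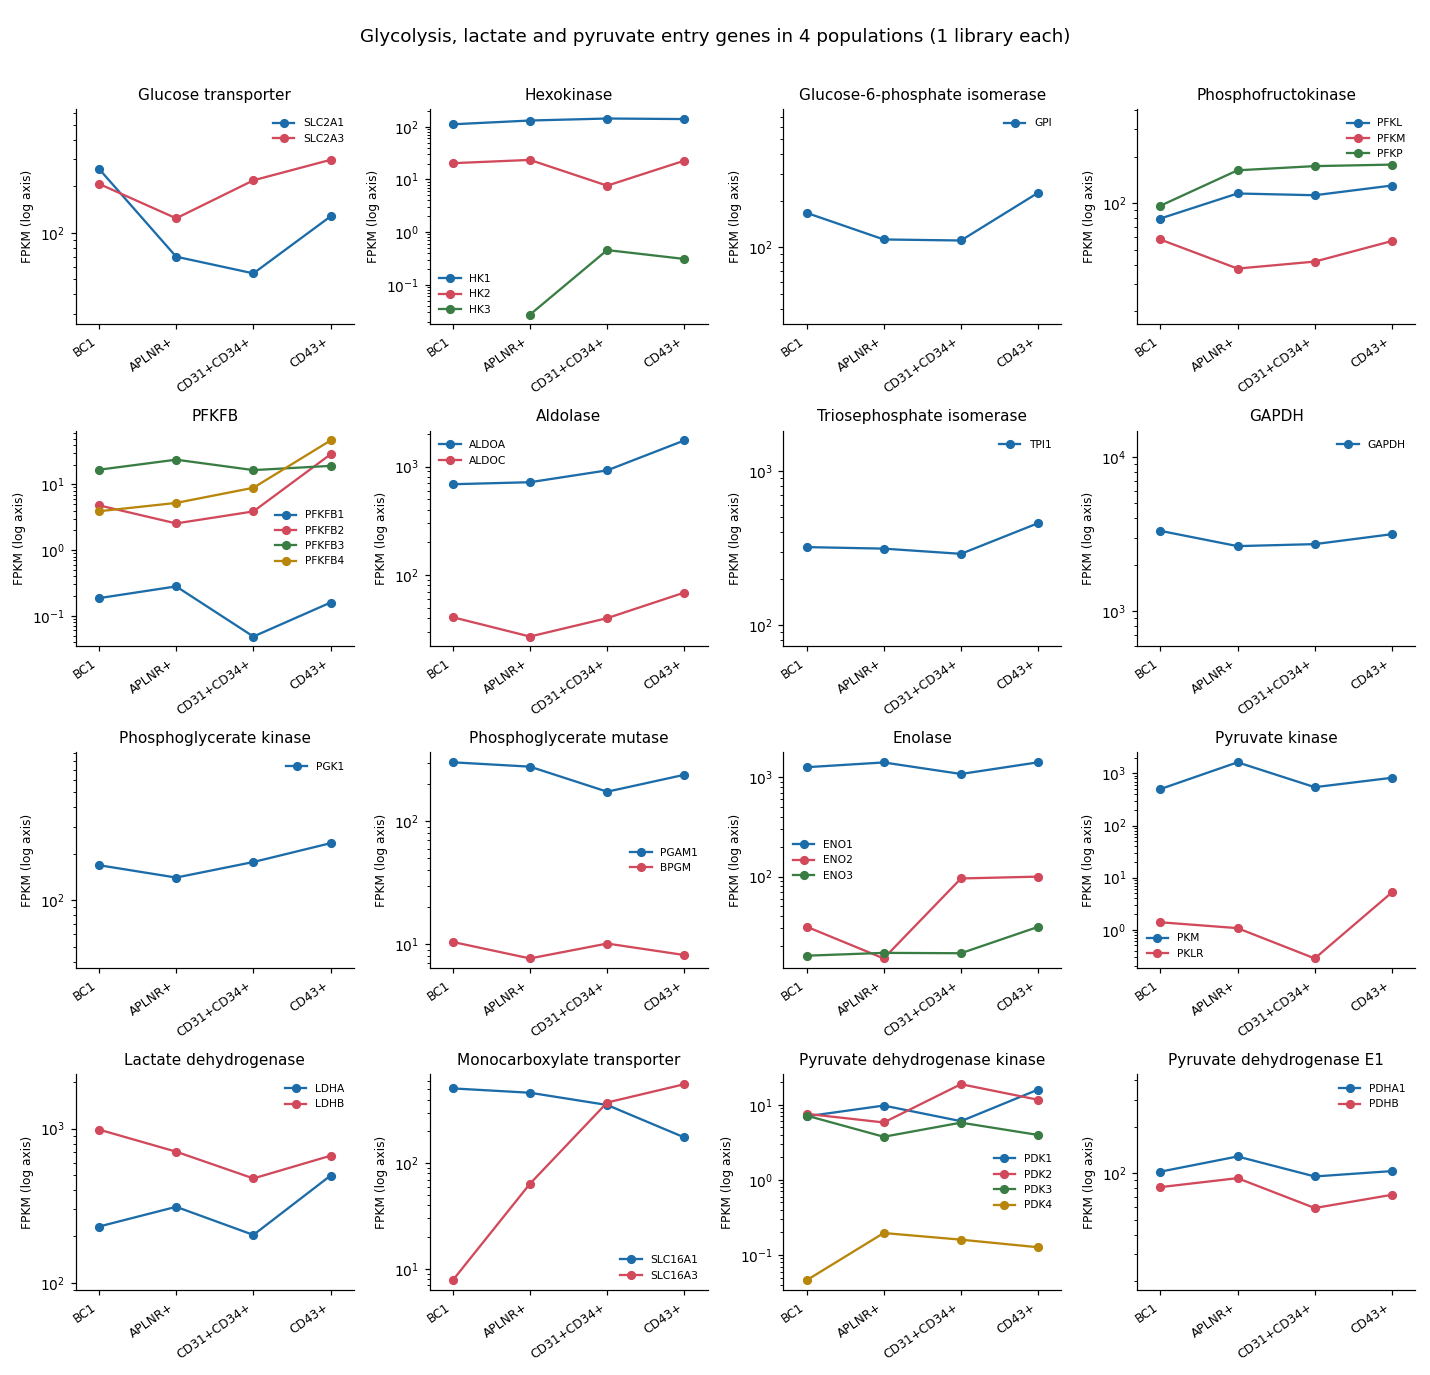
FPKM of the 35 genes (y axes, logarithmic and with a different range in each panel) in the 4 populations in the order of differentiation (x axes), with 1 panel for each family and 1 library per point. HK3 is listed at 0 in BC1 and has no point there. SLC16A3 climbs from 7.78 to 559 FPKM, PKM peaks in APLNR+ at 1635 FPKM, and PFKFB2 and PFKFB4 reach 28.8 and 46.9 FPKM in CD43+.

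The members are described along the pathway, and 4 values in a row follow the order BC1, APLNR+, CD31+CD34+ and CD43+. Positions are those of GRCh38. SLC2A1 (GLUT1, chr1:42925375-42959173), the transporter of most proliferating cells, was at 260.0 FPKM in BC1 cells, 70.0 in APLNR+ cells, 54.6 in CD31+CD34+ cells and 128 in CD43+ cells. It was highest in the undifferentiated cells and lowest in CD31+CD34+. Its level fell 3.71-fold at the first step (95% interval from counting 3.35 to 4.13) and rose 2.34-fold (2.07 to 2.65) at the last, which left it 2.03-fold (1.87 to 2.22) below BC1, a difference just past the threshold that no longer passed it with a scaling by median ratios. SLC2A3 (GLUT3, chr12:7919230-7936275), which has a higher affinity for glucose, was at 208, 124, 219 and 297 FPKM in the same order. No single step changed SLC2A3 by 1 on the log2(FPKM + 1) scale, but CD43+ was 2.39-fold (2.32 to 2.47) above APLNR+. Both genes were thus lower in APLNR+ than in BC1, and their sum went from 468 to 194 FPKM and back to 425 FPKM in CD43+. The share of SLC2A3 in that sum was 44.4% (43.1 to 45.7), 63.9%, 80.0% and 69.9% (68.4 to 71.4). SLC2A1 led only in BC1.

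Among the hexokinases, which phosphorylate glucose, HK1 (chr10:69269984-69401882) led in all 4 libraries at 112, 132, 144 and 140 FPKM, a range of 1.29-fold. HK2 (chr2:74833981-74893359), the inducible form, was at 20.4, 23.5, 7.62 and 22.7 FPKM. The low value of HK2 in CD31+CD34+ stood apart from the other 3, with a fall of 3.08-fold (2.86 to 3.33) and a rise of 2.99-fold (2.77 to 3.22) around it. APLNR+ and CD43+ themselves could not be told apart by counting (ratio 1.03, interval 0.978 to 1.09). The share of HK2 in the hexokinases was 5.02% in CD31+CD34+ and between 13.9% and 15.4% elsewhere. GPI (chr19:34359480-34402156), which turns glucose-6-phosphate into fructose-6-phosphate, was at 167, 112, 111 and 226 FPKM, highest in CD43+. Its rise at the last step was 2.04-fold (1.88 to 2.22), while counting could not separate APLNR+ from CD31+CD34+ (1.02-fold, 0.923 to 1.12).

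Phosphofructokinase, the committing step, is a tetramer built from 3 kinds of subunit. PFKP (chr10:3066333-3137712), the platelet form, led throughout at 96.1, 163, 174 and 178 FPKM. PFKL, the liver form, lay between 79.4 FPKM in BC1 and 130 FPKM in CD43+, and PFKM, the muscle form, between 37.7 and 58.1 FPKM. None of the 3 rose or fell at any step. The composition differed between BC1 and the sorted populations, since PFKM held 24.9% of the sum in BC1 and between 11.9% and 15.6% in the others, while PFKP held 41.1% in BC1 and between 48.7% and 53.0% in the others.

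The PFKFB enzymes, which set the amount of fructose-2,6-bisphosphate, included the largest rise of the last step on the log2(FPKM + 1) scale. PFKFB2 (chr1:207034366-207081024), the form of the heart, was at 4.81 FPKM in BC1 cells, 2.55 in APLNR+ cells, 3.89 in CD31+CD34+ cells and 28.8 in CD43+ cells. PFKFB4 (chr3:48517684-48562015), a form induced by hypoxia, was at 3.91, 5.24, 8.92 and 46.9 FPKM. Both were below 10 FPKM in the first 3 libraries and well above it in CD43+. From CD31+CD34+ to CD43+ PFKFB2 rose 7.42-fold (6.28 to 8.81) and PFKFB4 5.26-fold (4.52 to 6.15). PFKFB3, the form with the highest kinase over phosphatase activity, stayed between 16.6 and 23.9 FPKM. It led the family in the first 3 libraries, with 65.3%, 74.7% and 56.3% of the summed FPKM, and held 20.2% (18.8 to 21.6) in CD43+, where PFKFB4 led with 49.3% (47.4 to 51.3). The sum of the family was 25.7, 31.96 and 29.4 FPKM in the first 3 libraries and 95.2 FPKM in CD43+. PFKFB1, the liver and muscle form, was at most 0.280 FPKM.

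The steps from fructose-1,6-bisphosphate to phosphoenolpyruvate hold the most abundant transcripts of the set. ALDOA (chr16:30053090-30070457), the aldolase of most tissues, was at 687, 717, 922 and 1742 FPKM. It rose 2.54-fold (2.49 to 2.58) from BC1 to CD43+, and its last step was 1.89-fold (1.86 to 1.92), which is 0.92 on the log2(FPKM + 1) scale. ALDOC stayed between 27.0 and 68.7 FPKM, with ALDOA at least 16.9 times as high in each library. TPI1, which interconverts the triose phosphates, was at 321, 314, 291 and 460 FPKM. GAPDH (chr12:6533927-6538374), which makes the first NADH of the pathway and is often used as a reference gene, was at 3325, 2647, 2727 and 3163 FPKM, a range of 1.26-fold. The ratio of ALDOA to GAPDH went from 0.206 (0.203 to 0.210) in BC1 to 0.271, 0.338 and 0.551 (0.544 to 0.557) in CD43+, which does not depend on how the libraries are scaled. PGK1, the first step that yields ATP, was at 169, 140.1, 177 and 234 FPKM.

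Phosphoglycerate mutase moves the phosphate of 3-phosphoglycerate. PGAM1 was at 302, 278, 174 and 239 FPKM, lowest in CD31+CD34+. BPGM, which makes the 2,3-bisphosphoglycerate that lowers the oxygen affinity of hemoglobin in red cells, lay between 7.69 and 10.5 FPKM. In CD43+, where all 13 erythroid markers were detected, BPGM was at 8.19 FPKM, 1.24-fold (1.06 to 1.46) lower than in CD31+CD34+. ENO1 (chr1:8861002-8879249), the enolase of most cells, was at 1267, 1415, 1082 and 1420 FPKM and led its family in all 4 libraries. ENO2 (chr12:6913745-6923698), known as the neuronal enolase, was at 31.2, 14.9, 95.6 and 99.7 FPKM. ENO2 thus fell 2.09-fold (1.88 to 2.33), rose 6.41-fold (5.85 to 7.03) and was then 1.04-fold higher, with an interval of 0.996 to 1.09 that includes no difference. Its share of enolase was 1.03% in APLNR+ and 8.00% in CD31+CD34+. ENO3, the muscle form, was between 15.9 and 17.0 FPKM in the first 3 libraries and at 31.1 FPKM in CD43+, a change of 0.85 on the log2(FPKM + 1) scale.

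Pyruvate kinase, the last step of glycolysis, differed most in APLNR+. PKM (chr15:72199029-72231822) was at 501 FPKM in BC1 cells, 1635 in APLNR+ cells, 545 in CD31+CD34+ cells and 825 in CD43+ cells. The APLNR+ library alone was high: PKM rose 3.27-fold (3.21 to 3.33) into it and fell 3.002-fold (2.95 to 3.05) out of it, and both steps share that library. ENO1, the gene of the step before, differed by 1.12-fold and 1.31-fold at the same steps. The ratio of PKM to ENO1 was 0.395 (0.385 to 0.406), 1.16 (1.13 to 1.18), 0.503 and 0.581 in the 4 libraries, so it was above 1 in APLNR+ only. PKM gives rise to the PKM1 and PKM2 isoforms by a choice of exon, which FPKM of the whole gene cannot resolve, and a shift between transcripts of different length would itself alter the FPKM. That part was not tested. PKLR (chr1:155289839-155301434), the pyruvate kinase of red cells and liver, is below 10 FPKM throughout and is described because of its values. It was at 1.39, 1.07, 0.282 and 5.22 FPKM. Its rise of 18.5-fold (11.02 to 33.6) at the last step was the largest fold of the set at that step, yet PKLR held only 0.629% of pyruvate kinase FPKM in CD43+. All 13 erythroid markers and all 9 megakaryocytic markers were at 1 FPKM or more in the same library. The part of either cell type in the rise of PKLR was not tested.

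Lactate dehydrogenase interconverts pyruvate and lactate. LDHA (chr11:18394388-18408425), whose subunit favours the formation of lactate, was at 232, 311, 204 and 496 FPKM in the order of differentiation. LDHB (chr12:21635342-21757857), whose subunit favours the formation of pyruvate, was at 985, 708, 475 and 667 FPKM. LDHB was higher than LDHA in each of the 4 libraries, but the gap was widest in BC1 and narrowest in CD43+. LDHA rose 2.43-fold (2.34 to 2.51) at the last step. LDHB did not pass the threshold at any consecutive step, although CD31+CD34+ was 2.07-fold (2.00 to 2.14) below BC1. The ratio of LDHB to LDHA was 4.25 (4.10 to 4.40), 2.28, 2.32 and 1.34 (1.30 to 1.39), so that the share of LDHA in the sum went from 19.0% to 42.7%.

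The monocarboxylate transporters, which carry lactate and pyruvate across the membrane, held the largest change of the set. SLC16A3 (MCT4, chr17:82228397-82261129), the low-affinity transporter known from cells that export lactate, was at 7.78 FPKM in BC1 cells, 63.8 in APLNR+ cells, 375 in CD31+CD34+ cells and 559 in CD43+ cells. It was higher in each population than in the one before. SLC16A3 rose 8.20-fold (6.66 to 10.2) at the first step and 5.88-fold (5.48 to 6.32) at the second, and the last difference was 1.49-fold (1.44 to 1.54). From BC1 to CD43+ it rose 71.9-fold (59.0 to 88.5). SLC16A1 (MCT1, chr1:112911847-112957013), the transporter of higher affinity, went the other way, at 510.0, 464, 355 and 175 FPKM. It fell 2.03-fold (1.97 to 2.09) at the last step and 2.91-fold (2.83 to 2.99) over the path. SLC16A3 accounted for 1.502% of the pair in BC1 (1.23 to 1.82), 12.1% in APLNR+, 51.4% in CD31+CD34+ (50.6 to 52.1) and 76.2% in CD43+ (75.6 to 76.7). The sum of both was 518 FPKM in BC1 and 734 FPKM in CD43+. BSG, the chaperone that both transporters need to reach the membrane, lay between 362 and 457 FPKM in the 4 libraries.

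**Figure D3:**
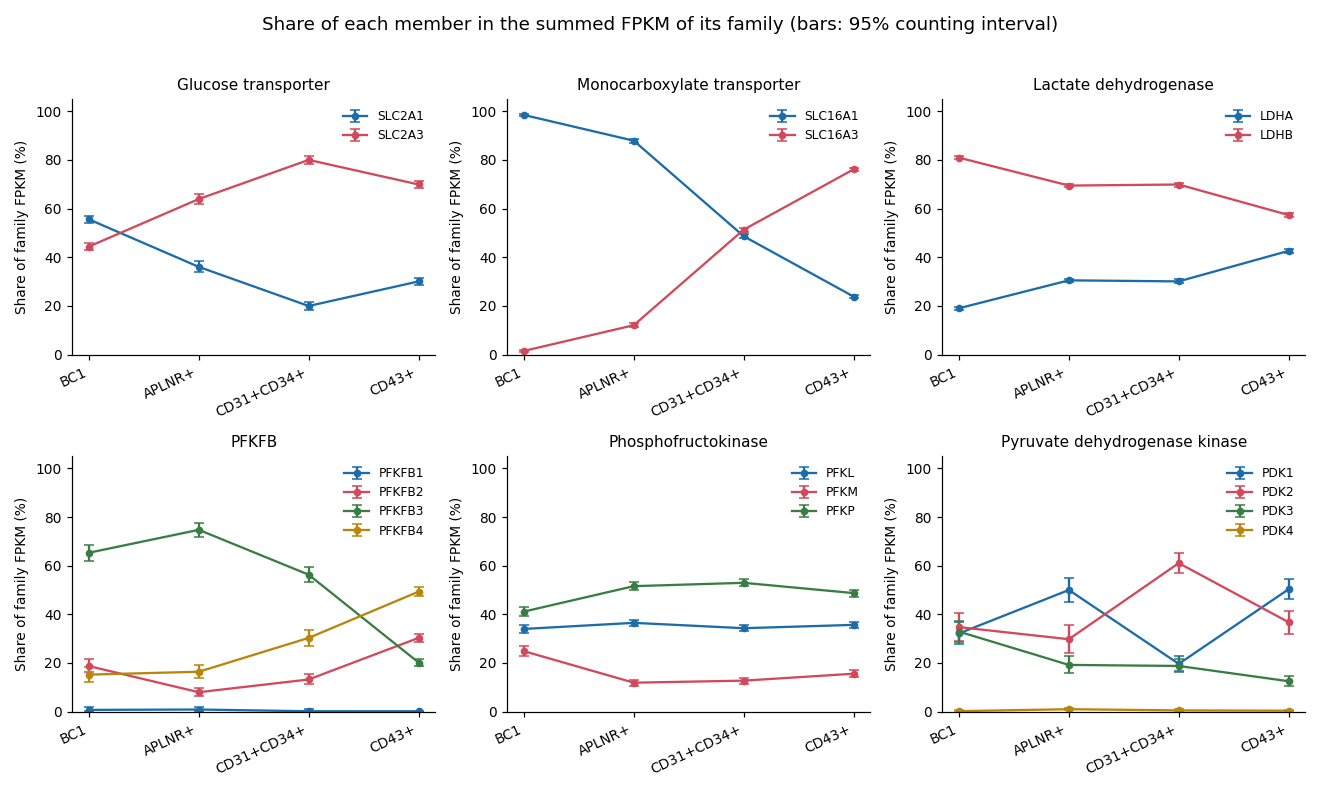
Share of each gene in the summed FPKM of its family (y axes, percent, from 0) in the 4 populations (x axes) for 6 families, with bars for the exact 95% interval from counting. SLC16A3 goes from 1.502% to 76.2%, PFKFB4 from 15.2% to 49.3% and LDHA from 19.0% to 42.7% between BC1 and CD43+, and the lines of SLC2A1 and SLC2A3 cross between BC1 and APLNR+.

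The pyruvate dehydrogenase kinases, which inactivate pyruvate dehydrogenase, were low in comparison. PDK1 (chr2:172555373-172608669), a form induced by hypoxia, was at 7.01, 9.75, 6.04 and 15.9 FPKM. PDK2 (chr17:50094737-50112152), the most widely expressed form, was at 7.58, 5.81, 18.8 and 11.6 FPKM. The highest value of PDK1 was in CD43+ and that of PDK2 in CD31+CD34+. PDK2 rose 3.23-fold (2.44 to 4.33) from APLNR+ to CD31+CD34+, and PDK1 rose 2.64-fold (2.14 to 3.27) from there to CD43+. PDK3 lay between 3.75 and 7.17 FPKM and PDK4, a form known from fasting, at or below 0.196 FPKM. In BC1 no kinase led, since the ratio of PDK2 to PDK1 was 1.08 with an interval of 0.805 to 1.44. PDK1 then led in APLNR+ with 50.0% of the sum, PDK2 in CD31+CD34+ with 61.1% (56.9 to 65.0) and PDK1 in CD43+ with 50.3% (46.2 to 54.5).

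The enzyme that these kinases act on differed less. PDHA1 (chrX:19343893-19361705), the E1 alpha subunit that carries the phosphorylation sites, was at 102, 128, 95.3 and 103 FPKM, and PDHB, the E1 beta subunit, at 81.3, 93.0, 59.5 and 72.5 FPKM. Neither rose or fell at any step. The ratio of PDHA1 to the summed FPKM of the 4 kinases was 4.70, 6.59, 3.10 and 3.26 along the path. It was lower in the 2 later populations than in the 2 earlier ones.

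Of the 12 families with several genes, 4 had a leading gene that was not the same in all libraries: the glucose transporters, the PFKFB enzymes, the monocarboxylate transporters and the pyruvate dehydrogenase kinases. In the other 8 the leader was the same gene throughout (HK1, PFKP, ALDOA, PGAM1, ENO1, PKM, LDHB and PDHA1). PDHA1 and PDHB are subunits of the same enzyme and not alternatives to each other. For the kinases the counting interval does not separate the first 2 genes in BC1. Retrotransposed copies of several of these genes could take fragments from them, as could genes on the other strand, since it is not stated whether counting used strand. The pseudogenes listed under the same symbols held at most 1.44% of the FPKM of a parent gene and its copies (TPI1, 4 pseudogenes), and the 62 GAPDH pseudogenes at most 0.379%.

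Promoter sequence is shown for genes that rose together in CD43+. LDHA, PDK1, PFKFB4 and SLC2A1 among them are textbook targets of hypoxia-inducible factor, whose core motif is ACGTG or GCGTG. Of the 8 genes, 7 had an entry in the RefSeq promoter table (GRCh38.p14). The windows reach 250 bases upstream of a RefSeq start, and only bases before the outermost start of the gene in GENCODE 29 that touch no annotated exon are printed, which left at least 50 bases for 3 genes: chr11:18394313-18394387 on the plus strand for LDHA, chr2:172555123-172555372 on the plus strand for PDK1 and chr1:155301439-155301688 on the minus strand for PKLR. They read 5′ to 3′ on the strand of the gene, with matches to either motif on either strand in capitals.
LDHA: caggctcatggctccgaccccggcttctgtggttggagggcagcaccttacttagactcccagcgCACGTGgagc
PDK1: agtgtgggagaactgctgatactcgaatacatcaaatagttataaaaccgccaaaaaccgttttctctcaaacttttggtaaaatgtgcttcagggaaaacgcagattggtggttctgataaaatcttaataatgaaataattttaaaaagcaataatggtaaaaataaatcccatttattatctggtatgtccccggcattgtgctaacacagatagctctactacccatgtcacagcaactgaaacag
PKLR: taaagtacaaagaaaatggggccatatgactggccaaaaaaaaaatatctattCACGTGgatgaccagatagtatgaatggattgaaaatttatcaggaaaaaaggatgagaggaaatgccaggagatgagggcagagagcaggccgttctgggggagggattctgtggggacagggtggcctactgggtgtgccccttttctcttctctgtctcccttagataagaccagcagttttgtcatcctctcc
LDHA and PKLR each hold 1 palindrome CACGTG, which counts as 2 overlapping matches, 1 on each strand, and PDK1 holds none in this stretch. The full 250-base windows, not printed, held 5 and 1 matches for LDHA and 0 and 2 for PDK1. For PFKFB4 the window held 1 match and for SLC2A1 it held 0. The windows of HK2 held 3 and 6 matches, those of PKLR 2 and 0, and that of GPI 1. Over the whole set, 32 of 35 genes had an entry, with 63 starts, and 33 of these 250-base windows (52.4%) held the motif. Of all 35116 windows in the table, 15172 (43.2%) held it. Counted by gene, 25 of the 32 (78.1%) held it in at least 1 of their windows, against 47.4% of the 27305 genes in the table, and the set has more windows per gene. A match is a run of letters, not a measured binding site, and no match says only that the letters are not in the stretch searched.

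Other genes of the pathway were counted in the same way. Of 30 further genes of glucose and lactate handling, 20 passed the filter, and at the 3 steps 1, 1 and 0 rose, where 9.15%, 13% and 7.63% of all genes did, and 1, 4 and 2 fell, where 9.32%, 11.4% and 13.5% of all genes did. At the second of these steps the transporter SLC2A6 fell from 13.02 to 5.65 FPKM. The pentose phosphate pathway branches off at glucose-6-phosphate and yields NADPH and ribose. None of its 7 genes that passed the filter rose or fell at the first 2 steps. Of all genes, 9.15% and 13% rose at these 2 steps and 9.32% and 11.4% fell. At the last step 2 of the 7 rose and none fell, with a median change of 0.58, where 7.63% of all genes rose and 13.5% fell, with a median of -0.08. TALDO1, the transaldolase of the pathway, rose from 82.9 to 213 FPKM (2.57-fold, 2.43 to 2.71). The 8 genes of the mitochondrial pyruvate carrier, the other subunits of pyruvate dehydrogenase and its phosphatases included none that rose or fell at any step. Of all genes, 9.15%, 13% and 7.63% rose at these steps and 9.32%, 11.4% and 13.5% fell. Among 6 genes of gluconeogenesis, PCK2 and PC fell from APLNR+ to CD31+CD34+, from 44.8 to 20.7 FPKM and from 21.6 to 10.2 FPKM. At that step 11.4% of all genes fell. Both changes lay close to the threshold, at -1.07 for PCK2 and -1.02 for PC.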

How the data were processed

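Total RNA of 4 populations (1 library each) was sequenced. The authors deposited a table of FPKM values per gene, the unit being read from the values and from how the study's plots label the scale. The submitters' processing notes name BWA, Bowtie, RSEM and hg19, without roles, whereas 55645 of the 55647 genes whose identifier version matched GENCODE 29 had the coordinates of GRCh38, which is the build given here. No count table was used. The table held 58365 rows, and rows of the same gene identifier were summed (90 identifiers). Populations were taken from the sample labels.

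Changes are differences of log2(FPKM + 1), a scale that understates the change of low genes. Genes were kept when any library had 1 FPKM or more (17137), and a change of at least 1 counted as a rise or fall. Depth was recovered from the steps of low FPKM values (from 84.0% to 86.0% of those used lay within 0.1 of a whole fragment), and fragments were approximated from median protein-coding transcript lengths. These account for between 67.5% and 71.2% of the depth, so that the fragments are too few in sum. Whether the interval of a single gene is too wide or too narrow was not checked. Ratios and shares carry exact Clopper-Pearson 95% intervals, for counting error only, and no fold is given where a value is at or under 3 fragments. Values in every library are given for the leading gene of each family and for genes that rose or fell with at least 10 FPKM, and of other lists for up to 3 genes per step, some of which are not reported here. The members and lists were chosen with earlier results of these data known. The scripts were tested on simulated data. Python 3.11.15, pandas 2.3.3, NumPy 2.4.6, SciPy 1.17.1 and matplotlib 3.10.9 were used. Alternatives were another pseudocount, other filters, scalings and thresholds, added pseudogenes, the largest row of a gene alone, and shares of fragments.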

Additional observations from a re-analysis of the deposited data

How the results depend on the processing

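No rise or fall of the set at the 3 steps changed direction under the alternatives run, but none of these could have reversed a change of at least 1. The scale factors lay between 0.953 and 1.08, and pseudogenes held at most 1.44% of the FPKM of a gene and its copies. Pseudocounts, filters and thresholds do not alter the sign of a change. Changes near 0 that passed no threshold did change sign under other scalings, among them HK1 and PFKP at the last step and GPI and ENO3 at the second. With a scaling by median ratios the median change of the set was 0.55 from CD31+CD34+ to CD43+, 0 genes fell at that step and 1 (SLC16A1) fell from BC1 to CD43+, and the changes of ALDOA and SLC16A1 at the last step were 1.02 and -0.91. Without mitochondrial and globin genes the last median was 0.39. With reference genes the medians were -0.17 from BC1 to APLNR+, 0.28 from CD31+CD34+ to CD43+ and 0.31 from BC1 to CD43+, but that scaling also moved the median of all genes at the last step from -0.08 to -0.21, and the set stood 0.48 above it against 0.53 as reported. GPI was at 0.97 and 0.85 under these 2 scalings, and PKLR at -1.62 from APLNR+ to CD31+CD34+ with a pseudocount of 0.1. The medians of the first 2 steps lay so close to 0 that their sign depended on the setting (0.04 without a filter and 0.01 with a filter of 10 FPKM at the first step, 0.07 with reference genes at the second). With a threshold of 2 in place of 1, 1 gene changed from BC1 to APLNR+ (1 rose, 0 fell), 2 from APLNR+ to CD31+CD34+ (0 fell), 3 from CD31+CD34+ to CD43+ (3 rose, 0 fell) and 3 from BC1 to CD43+ (3 rose, 0 fell), since fewer genes reach it. In the same order, 2.68%, 4.08%, 2.28% and 5.37% of all genes rose at that threshold. The shares of all genes that fell were 2.29%, 3.15%, 4.32% and 6.77%. Shares of fragments, not corrected for length, moved 83 of 95 family shares beyond their counting interval by construction. The leading gene by fragments differed between libraries in 4 families, but not the same 4. SLC2A3 led the glucose transporters in all libraries (8125 fragments against 1585 for SLC2A1 in BC1). Lactate dehydrogenase changed its leader instead, from LDHB in BC1 (9389 against 4743) to LDHA in CD43+ (10865 against 6652). In CD43+ PFKFB2 led its family with 1082 fragments against 980 for PFKFB4. Adding pseudogenes moved no count or median beyond its limits. Taking only the largest row of a gene was run for the family shares and their leaders, which stayed the same. Each gene of the set has 1 row, so this setting could not have altered them. No paired analysis was possible because each population has 1 library, and no library could be left out for the same reason.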

Other observations

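Genes that respond to hypoxia outside glycolysis moved in both directions, with more rises than falls. Of 21 that passed the filter, the numbers that rose at the 3 steps were 5, 6 and 7, where 9.15%, 13% and 7.63% of all genes rose, and 3 fell at each, where 9.32%, 11.4% and 13.5% of all genes fell. The median changes were 0.28, 0.43 and 0.49, against 0.00, 0.01 and -0.08 for all genes. Over the path from BC1 to CD43+, 10 rose and 4 fell, where 15.2% of all genes rose and 18.9% fell. The median change over this path was 0.93 against -0.06 for all genes. ADM, the vasodilator adrenomedullin, fell from 52.7 to 1.70 FPKM at the first step, and AK4, a mitochondrial adenylate kinase, from 86.0 to 6.87 FPKM, while the carbonic anhydrase CA12 rose from 1.49 to 35.1 FPKM. CA12 and EGLN3, a prolyl hydroxylase that marks hypoxia-inducible factor for decay, then fell to 0.451 and 3.93 FPKM in CD31+CD34+. At the last step VEGFA rose from 23.3 to 94.9 FPKM and AK4 from 3.49 to 18.0 FPKM, while NDRG1 fell from 27.1 to 6.92 FPKM.

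Of 14 regulators of hypoxia and MYC responses, 3 rose and 3 fell at the last step, where 7.63% and 13.5% of all genes did. MYCN was at 60.0, 42.5, 17.5 and 108 FPKM in the 4 libraries and MYC at 52.9, 86.5, 57.9 and 141 FPKM. HIF1A, the inducible subunit of hypoxia-inducible factor, was at 50.9, 37.3, 50.1 and 29.1 FPKM, and HIF3A fell from 34.6 to 4.83 FPKM at the last step. MAX, the partner of MYC, rose there from 74.9 to 295 FPKM. TXNIP, an inhibitor of glucose uptake that is induced by glucose, was at 1.76, 2.05, 218 and 201 FPKM, the largest change of these lists. Among 22 reference genes the second step held 1 rise and 2 falls, where 13% of all genes rose and 11.4% fell. The last step held 2 rises and 0 falls, where 7.63% of all genes rose and 13.5% fell. ACTB went from 2235 to 1032 FPKM at the second step and to 3021 FPKM at the last.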
